A study of Gallus gallus with 24 samples.

Results

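The 70 genes described here are the autosomal genes of the chicken whose names mark them as parts of the mitochondrial respiratory chain or of ATP synthase. They were chosen by name alone, as genes whose symbol begins with NDUFA, NDUFB, NDUFC, NDUFS, NDUFV, SDH, UQCR, COX4 to COX8 or ATP5, lie outside the sex chromosomes and the mitochondrial genome, and have at least 240 reads summed over all libraries. Of the 16779 genes in the expression table, 75 had such a name. The 5 on chromosome Z (ATP5A1Z, ATP5ME, COX7C, NDUFAF2 and NDUFS4) were set aside. The count minimum removed no gene, since the 2 smallest sums among the 70 were 2628 reads for NDUFAF8 and 2897 reads for ATP5S. The 70 genes lie on 27 chromosomes. By complex they are 37 genes of complex I, 6 of complex II, 8 of complex III, 8 of complex IV and 11 of complex V.

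The respiratory chain sits in the inner mitochondrial membrane and passes electrons from NADH and succinate to oxygen. Complexes I, III and IV pump protons as electrons pass, complex II feeds in electrons from succinate without pumping, and complex V (ATP synthase) lets the protons back through a rotating ring of c subunits to make ATP. Most subunits are encoded in the nucleus and imported, a few in the mitochondrial genome, and assembly factors help to build the complexes without staying in them. Neurons depend heavily on this pathway for the ATP that keeps their ion gradients and synapses working.

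The study sequenced RNA from the hypothalamus of Ross 308 broiler chickens, a meat strain, at 42 days of age. From 28 days of age birds stayed at 24 °C or moved to 35 °C, both at 60% relative humidity, and were fed a basal diet or the same kind of diet with 1% L-citrulline, an amino acid that the body turns into arginine. This gave 4 groups of 6 libraries each, namely L-citrulline at 35 °C, basal diet at 35 °C, L-citrulline at 24 °C and basal diet at 24 °C. Every treatment had 6 replicates of 12 chickens, and each library came from 1 chicken per replicate. The labels name no genotype beyond the strain. They give neither the sex of the birds nor a day, chamber or cage shared between libraries, and the p-values below measure the spread between single birds.

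The 24 libraries held between 12635239 and 15001037 reads in genes, and transcripts of the mitochondrial genome took 6.50% to 8.19% of them. All 12 genes taken as markers of hypothalamic regions were detected at a level that could be tested. Genes on chromosome W separated the libraries into 12 with and 12 without W transcripts, of which 4, 2, 4 and 2 libraries with W transcripts stood in the L-citrulline 35 °C, basal 35 °C, L-citrulline 24 °C and basal 24 °C groups. The pieces differed in myelin and in neighbouring tissue, with 7 summed oligodendrocyte markers between 15922 and 66600 CPM (reads scaled to library depth) over the L-citrulline 35 °C birds alone. The 2 tested skeletal muscle markers averaged 3.59 log2 CPM in bird 5 of the L-citrulline 24 °C group. In the other birds they averaged 0.17 to 1.33 log2 CPM. That bird also had the highest mean of the choroid plexus markers listed below, 3.99 log2 CPM. Its mean of the hypothalamic region markers was low, at 1.79 log2 CPM. Only bird 2 of the same group was lower, at 1.59 log2 CPM, and all other birds had 2.21 to 3.50 log2 CPM.

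Levels between genes are given as FPKM, which divides reads by the length of the gene model and the depth of the library. The respiratory chain genes were abundant, with a median of 70.7 FPKM against 10.7 FPKM over the 13742 genes that could be tested. Of the 70 genes, 68 lay above that median and 47 lay in the highest 10% of tested genes. Together they took 0.679% to 0.829% of the reads of a library. Birds of 1 group also varied less in these genes than in most others, with a median within-group SD of 0.119 log2 CPM against 0.197 log2 CPM over all tested genes, and 79.4% of tested genes had a larger SD than the median member. Since the members were also more abundant than most tested genes, and no comparison with genes of similar level was made, this is not read as particular to them.

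Complex I, the NADH dehydrogenase, had a median of 66.9 FPKM over its 37 genes. Its highest gene was NDUFA4 at 262 ± 28.1 FPKM (SD, n = 24 libraries), a small protein named as a complex I subunit that is also known as a component of cytochrome c oxidase. The lowest was NDUFAF6, an assembly factor, at 9.32 ± 1.17 FPKM. Among the core genes, whose relatives form the bacterial enzyme, NDUFS1, an iron-sulfur protein, stood at 89.4 FPKM and NDUFS3 at 60.3 FPKM.

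Complex II, succinate dehydrogenase, which is also an enzyme of the citric acid cycle, had its highest gene in SDHD, a membrane anchor, at 155 ± 7.76 FPKM. SDHA, the flavoprotein, followed at 140 FPKM, then SDHB, the iron-sulfur protein, at 107 FPKM and SDHC, the other anchor, at 78.2 FPKM. The lowest was SDHAF2, which attaches the flavin to SDHA, at 14.6 ± 2.12 FPKM. In complex III, the cytochrome bc1 complex, levels ran from 37.2 ± 3.82 FPKM for UQCRQ to 261 ± 23.6 FPKM for UQCRH, the hinge protein near cytochrome c1.

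Complex IV, cytochrome c oxidase, had the highest median of the 5 complexes at 287 FPKM. COX6C led all 70 genes at 376 ± 30.9 FPKM, and COX5A was the lowest of its complex at 44.4 ± 2.61 FPKM. The table names 1 gene COX4I2, the isoform that in mammals is favoured in lung and under low oxygen, with 341 FPKM. The RefSeq table of build GRCg7b gives the gene of the same NCBI number the symbol COX4I1, the common isoform, and the value is given here under the table's name. Of the isoforms that differ between tissues, the rule found only COX4I2, COX6A1, COX7A2 and its relative COX7A2L, NDUFA4, ATP5MC1 and ATP5MC3 under these names.

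Complex V had its highest gene in ATP5F1B, the catalytic beta subunit of the F1 head, at 223 ± 10.8 FPKM. The lowest was ATP5S, a coupling factor, at 6.19 ± 1.60 FPKM, which also varied most among birds of 1 group (SD 0.357 log2 CPM). The c subunit genes ATP5MC1 and ATP5MC3, which encode the same mature ring protein from different genes in mammals, stood at 128 and 56.4 FPKM.

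**Figure D1:**
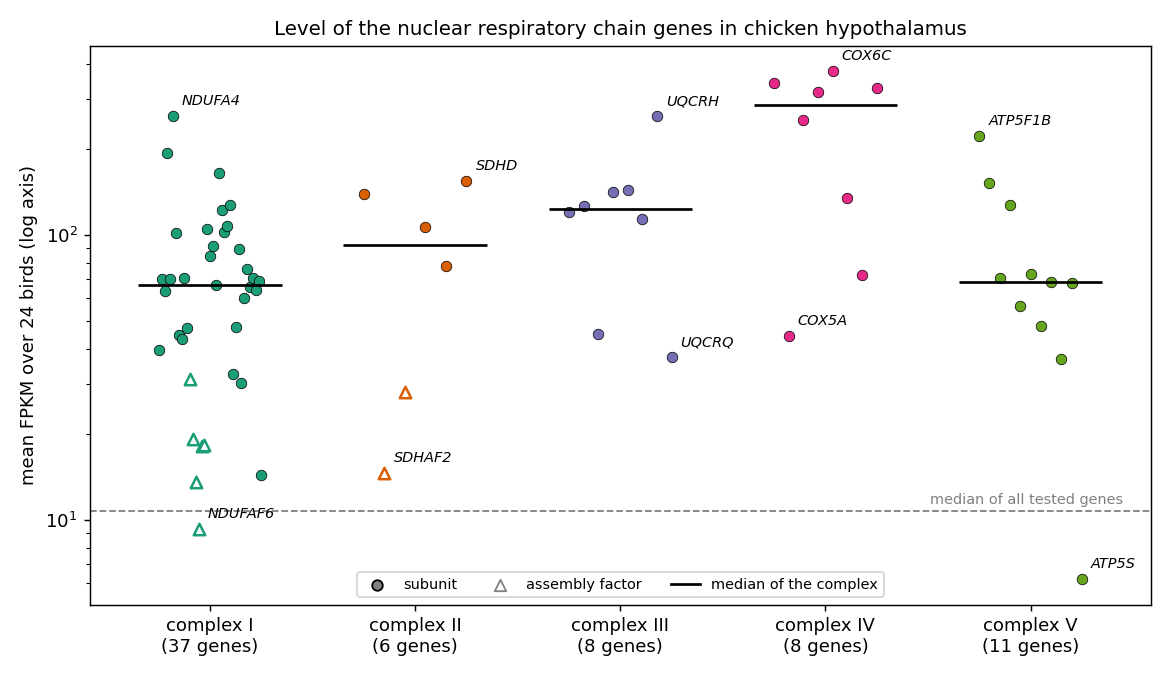
Mean FPKM over the 24 birds on a log axis for each of the 70 genes, by complex, with subunits as filled circles, assembly factors as open triangles and the median of each complex as a bar. Complex IV had the highest median at 287 FPKM, and 68 of the 70 genes lay above the dashed median of all tested genes, 10.7 FPKM.

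Summed over all 70 genes, the lowest, median and highest bird had 6513, 7055 and 7207 FPKM in the L-citrulline 35 °C group. The basal 35 °C birds had 6235, 7044 and 7438 FPKM. The L-citrulline 24 °C birds had 6387, 6822 and 7197 FPKM, and the basal 24 °C birds 6970, 7300 and 7814 FPKM. All 4 groups overlapped, with basal 24 °C birds toward the upper end and L-citrulline 24 °C birds toward the lower. The whole span was narrow, since the highest bird (basal 24 °C, bird 2) had 1.25 times the sum of the lowest (basal 35 °C, bird 1).

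A few birds stood at the ends for many genes at once. Bird 1 of the basal 35 °C group had the lowest CPM of all 24 birds for 18 of the 70 genes, against 4.42% of all tested genes. Birds 4 and 5 of the L-citrulline 24 °C group had the lowest value for 17 and 14 genes, against 3.70% and 6.84% of all tested genes, and bird 2 of the L-citrulline 35 °C group for 9, against 5.09%. At the upper end, bird 2 of the basal 24 °C group was highest for 23 genes, against 2.75% of all tested genes, and bird 3 of that group for 10, against 2.56%.

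Complex IV had the widest span, with a ratio of 1.34 between its highest and lowest bird, and complex II the narrowest, with 1.18. Complex IV summed to 1870 ± 99.8 FPKM in L-citrulline 35 °C birds, 1854 ± 134 FPKM in basal 35 °C birds, 1795 ± 112 FPKM in L-citrulline 24 °C birds and 1976 ± 118 FPKM in basal 24 °C birds (SD, n = 6 each). Complex V summed to 923 ± 32.7, 923 ± 40.5, 900.1 ± 35.3 and 978 ± 43.5 FPKM in the same groups. For both complexes the ranges of all groups overlapped. In dissected tissue, fewer cells of a kind and less RNA per cell cannot be told apart in these levels.

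**Figure D2:**
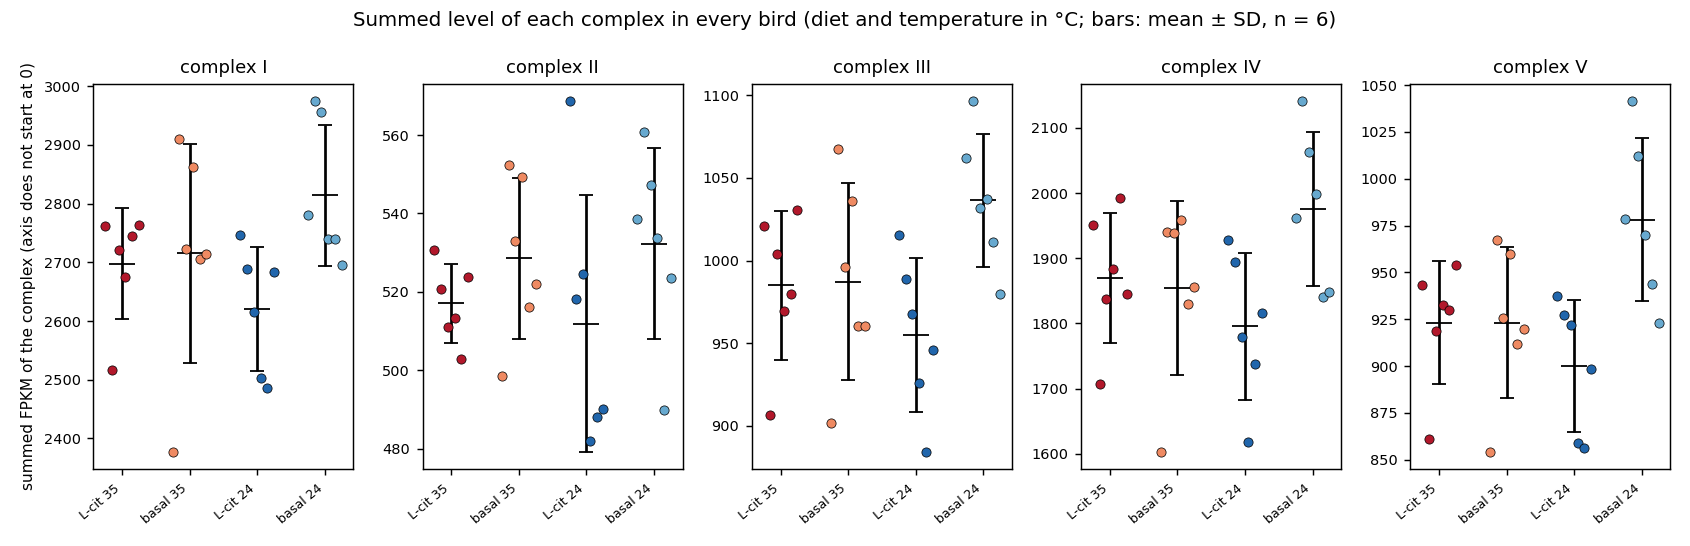
Summed FPKM of each complex in every bird, by group, with the mean and SD of 6 birds; the axes do not start at 0. In every complex the L-citrulline 24 °C mean lay below the basal 24 °C mean and the groups overlapped, and bird 1 of the basal 35 °C group was the lowest of all birds for complex IV at 1603 FPKM.

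Markers of other cell kinds moved with some of the comparisons that follow. The 8 tested markers of ciliated ependyma, the lining of the ventricle, summed to 59.2 to 90.5 CPM in L-citrulline 35 °C birds, 75.9 to 117 CPM in basal 35 °C birds, 86.3 to 133 CPM in L-citrulline 24 °C birds and 60.8 to 109 CPM in basal 24 °C birds. Their median log2 fold change was 0.24 for heat on the basal diet (8 of 8 above 0), 0.55 for L-citrulline at 24 °C (7 of 8 above 0) and -0.41 for heat on the L-citrulline diet (8 of 8 below 0), each of the opposite sign to the median of the respiratory chain genes, and -0.21 for L-citrulline at 35 °C (8 of 8 below 0). The 6 tested markers of choroid plexus, the secretory tissue of the ventricles, summed to 31.4 to 189 CPM in L-citrulline 35 °C birds, 41.4 to 93.2 CPM in basal 35 °C birds, 34.8 to 2005 CPM in L-citrulline 24 °C birds and 24.1 to 1746 CPM in basal 24 °C birds. Their medians were 0.61 for L-citrulline at 24 °C (5 of 6 above 0), -0.53 for heat on the L-citrulline diet (5 of 6 below 0) and -0.17 for heat on the basal diet (4 of 6 below 0). The 11 neuron markers had medians of -0.03 for L-citrulline at 24 °C and 0.04 for heat on the L-citrulline diet. Their sum had a median of 5855 CPM (5633 to 8634) in L-citrulline 24 °C birds and 6879 CPM (6266 to 7436) in basal 24 °C birds. At 35 °C the median sum was 6891 CPM on L-citrulline and 6635 CPM on the basal diet. No fit with the neuron marker level as a covariate was made. None of these markers was at 0 in every library. Fits with the mean level of the ependyma, choroid plexus or oligodendrocyte markers as a covariate are given below. They stand beside the single-factor comparisons, heat and L-citrulline against neither, and the interaction. Those with the ependyma and choroid plexus markers were added after seeing the data. The marker levels differ between the groups, so the fitted effects of a marker level and of heat or diet are only partly separable.

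Most subunits moved together from bird to bird within groups, as described further below. The counts of members in each comparison are therefore not counts of independent genes. The first comparison asked what heat did on the basal diet. The fold changes of 62 of the 70 genes were below 0, with a median log2 fold change of -0.08, against a median of 0.00 over all 13742 tested genes and 49.9% of them below 0. No gene passed an adjusted p of 0.05 in edgeR's quasi-likelihood test, where 0% of all tested genes passed. At an unadjusted p under 0.05, 12 of the 70 genes were lower at 35 °C (17.1%) and none was higher, against 1.55% of tested genes lower and 2.14% higher. DESeq2 and limma voom also called no member. With the ependyma marker level as a covariate, 46 genes were below 0 with a median of -0.03, and 4 were lower and 1 higher at an unadjusted p under 0.05. With the choroid plexus marker level, 62 genes were below 0 with a median of -0.08, and 14 were lower at that p. With the oligodendrocyte marker level, 59 genes were below 0 with a median of -0.07, and 12 were lower at that p.

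By complex, the median log2 fold change was -0.07 for complex I (32 of 37 genes below 0), -0.02 for complex II (5 of 6), -0.09 for complex III (7 of 8), -0.10 for complex IV (8 of 8) and -0.13 for complex V (10 of 11). Without bird 1 of the basal 35 °C group, these medians were -0.05 for complex I, -0.00 for complex II, -0.06 for complex III, -0.05 for complex IV and -0.07 for complex V. With the ependyma marker level as a covariate they were -0.03, 0.01, -0.05, -0.05 and -0.04 for complexes I to V. With all birds and no covariate, the genes under an unadjusted p of 0.05 were 3 of complex I, 2 of complex III, 2 of complex IV and 5 of complex V. In complex V the 6 members of the membrane part and stalk, ATP5S counted among them, had a median of -0.17. The 3 members of the F1 head had a median of -0.04. The F1 alpha gene lies on chromosome Z and was set aside. Of genes without a symbol, F1 epsilon stood at -0.22 ± 0.10, subunit O at -0.15 ± 0.07 and subunit g at -0.09 ± 0.07. The difference between the parts was not tested.

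ATP5PD, the d subunit of the stalk, had a lowest, median and highest value of 43.9, 50.3 and 54.3 CPM in basal-diet birds at 35 °C, against 51.9, 58.0 and 64.8 CPM in basal 24 °C birds. The ranges overlapped only at their ends. Its log2 fold change of -0.22 ± 0.07 (SE; 95% interval -0.35 to -0.08) had an unadjusted p of 0.00314 and an adjusted p of 1.00 in edgeR. ATP5MPL, a small membrane subunit on chromosome 5, had 55.8, 62.8 and 64.7 CPM in basal-diet birds at 35 °C, against 65.8, 70.0 and 77.7 CPM in basal 24 °C birds. Every heated bird was below every bird kept at 24 °C, the only such gene of the 70 in this comparison, against 0.109% of all tested genes.

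Next in order of p came ATP5MF, the f subunit of the membrane part, with -0.22 ± 0.07, and NDUFA6, an accessory subunit of the matrix arm of complex I, with -0.23 ± 0.08. COX6C had 149, 187 and 194 CPM in basal-diet birds at 35 °C, against 190.5, 200.3 and 225 CPM in basal 24 °C birds, a log2 fold change of -0.17 ± 0.06. Its heated birds lay mostly below the others, and the lowest of them was again bird 1. NDUFB9 of the membrane arm (-0.14 ± 0.06), UQCR10 (-0.13 ± 0.05) and UQCRB, the quinone-binding protein of complex III (-0.17 ± 0.07), completed the 8 genes with the smallest p. Without bird 1 of the basal 35 °C group, 52 of the 70 genes were below 0 in this comparison.

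At 24 °C, L-citrulline against the basal diet gave the largest median shift and the most genes at a small p among the 4 single-factor comparisons. It shares the basal 24 °C birds with the comparison above. Here 63 of the 70 fold changes were below 0, against 47.6% of tested genes, with a median of -0.11 (a level 7.54% lower) against 0.01 over all tested genes. At an unadjusted p under 0.05, 27 genes (38.6%) were lower and none higher, against 3.43% of tested genes lower and 3.54% higher. None passed the adjusted threshold in edgeR, where 0% of all tested genes passed, and none of the 70 passed in DESeq2 or limma voom. The count of 27 depended on single birds, since it was 15 without bird 4 of the L-citrulline 24 °C group, 17 without bird 5 of that group and 16 without bird 3 of the basal 24 °C group. It was 2 with the ependyma marker level as a covariate, where 44 genes were below 0 with a median of -0.03, and 12 with the choroid plexus marker level, where 63 were below 0 with a median of -0.08. With the oligodendrocyte marker level the count was 28, and 64 genes were below 0 with a median of -0.11.

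The median log2 fold change was -0.10 for complex I, -0.06 for complex II, -0.15 for complex III, -0.16 for complex IV and -0.14 for complex V. That of complex II was -0.03 without bird 4 of the L-citrulline 24 °C group and -0.09 without bird 5 of the basal 24 °C group. Complexes I to V had medians of -0.02, 0.00, -0.06, -0.04 and -0.06 with the ependyma marker level as a covariate, and complexes I and V had -0.06 and -0.08 with the choroid plexus marker level. The 27 genes were 11 of 37 in complex I, 5 of 8 in complex III, 4 of 8 in complex IV, 7 of 11 in complex V and none of complex II. All 11 in complex I were accessory subunits, and the 6 core genes had a median of -0.06 with none under an unadjusted p of 0.05. All 11 genes of complex V and all 8 of complex IV were below 0.

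ATP5MF (chromosome 14, bases 4796009 to 4797562, minus strand, build GRCg6a) had the smallest p of any member. It had 59.1, 60.9 and 67.04 CPM in L-citrulline 24 °C birds, against 66.2, 74.7 and 85.7 CPM in basal 24 °C birds, and the ranges met only at their ends. The log2 fold change was -0.29 ± 0.07 (95% interval -0.44 to -0.14), with an unadjusted p of 0.000583 and an adjusted p of 0.419 in edgeR. Over the alternatives the smallest adjusted p of this gene was 0.124.

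ATP5MC3, a gene for the c ring (chromosome 7, bases 16638236 to 16652554, plus strand), had 102, 112 and 119.6 CPM in L-citrulline 24 °C birds, against 124, 126 and 134 CPM in basal 24 °C birds. No bird on L-citrulline reached the lowest bird on the basal diet, and it was the only member whose groups did not overlap, against 0.16% of tested genes that were lower without overlap. Its log2 fold change was -0.21 ± 0.05 (95% interval -0.32 to -0.10; adjusted p = 0.427 in edgeR). The other c ring gene, ATP5MC1, differed by -0.13 ± 0.06.

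NDUFC2, an accessory subunit of the membrane arm of complex I, had 40.9, 44.1 and 48.9 CPM in L-citrulline 24 °C birds, against 47.8, 51.9 and 58.8 CPM in basal 24 °C birds. Only the highest L-citrulline bird reached the range of the basal diet, and the log2 fold change was -0.25 ± 0.07 (adjusted p = 0.454 in edgeR). COX6C had 163, 177 and 192 CPM in L-citrulline 24 °C birds, against 190.5, 200.3 and 225 CPM in basal 24 °C birds, with a log2 fold change of -0.21 ± 0.06. Here too only the highest L-citrulline bird reached the other group. The remaining genes among the 8 with the smallest p were ATP5MPL (-0.20 ± 0.06), UQCRH (-0.19 ± 0.07), NDUFA1 of the membrane arm (-0.26 ± 0.09) and UQCR10 (-0.15 ± 0.05). With the ependyma marker level as a covariate ATP5MF stood at -0.27, ATP5MC3 at -0.15, NDUFC2 at -0.14, COX6C at -0.09 and UQCR10 at -0.05.

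**Figure D3:**
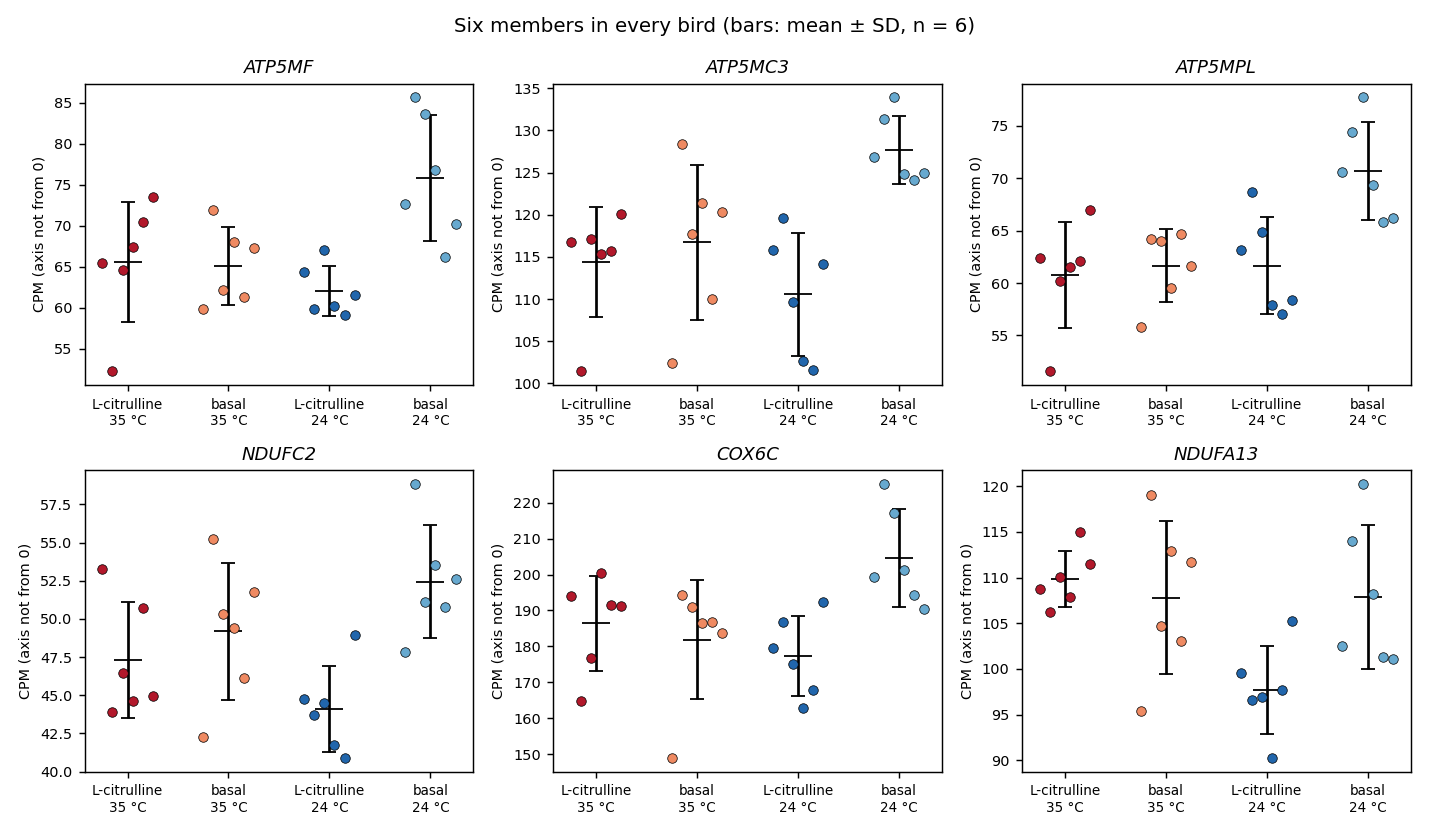
CPM of 6 genes in every bird, by group, with the mean and SD of 6 birds; the axes do not start at 0. The basal 24 °C birds were the highest group for ATP5MF, ATP5MC3, ATP5MPL, NDUFC2 and COX6C, and the L-citrulline 24 °C birds the lowest for NDUFA13.

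Heat on the L-citrulline diet had the opposite sign for most genes, and it shares the L-citrulline 24 °C birds with the comparison above. The fold changes of 57 of the 70 genes were above 0, against 52.4% of tested genes, with a median of 0.05 against 0.01 over all tested genes. No member passed in edgeR, DESeq2 or limma voom (0% of tested genes in edgeR). At an unadjusted p under 0.05, 2 genes (2.86%) were higher, against 3.38% of tested genes, so the count of single genes was no larger than over all genes. Medians were 0.06 for complex I, 0.04 for complex II, 0.07 for complex III, 0.08 for complex IV and 0.05 for complex V, and all 8 genes of complex III and all 8 of complex IV were above 0. Leaving out single L-citrulline 24 °C birds lowered these medians, to 0.03, 0.01 and 0.05 for complexes I, II and IV without bird 4, and to 0.04 and 0.02 for complexes III and V without bird 5. The direction did not hold with the ependyma marker level as a covariate, where 21 of the 70 genes were above 0 with a median of -0.02 and the medians of all 5 complexes were below 0. With the choroid plexus marker level 50 genes were above 0 with a median of 0.03, and with the oligodendrocyte marker level 55.

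NDUFA13, also known as GRIM-19, an accessory subunit of complex I (chromosome 28, bases 3554000 to 3555101, minus strand), led this comparison. It had 106, 109 and 115 CPM in L-citrulline 35 °C birds, against 90.2, 97.3 and 105 CPM in L-citrulline 24 °C birds. Every heated bird was above every bird at 24 °C, as for 0.109% of tested genes. Its log2 fold change was 0.17 ± 0.05 (95% interval 0.06 to 0.28; unadjusted p = 0.00403 and adjusted p = 0.545 in edgeR).

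UQCRC1, a core protein of complex III, had 237, 243 and 266 CPM in L-citrulline 35 °C birds, against 213, 222 and 263 CPM in L-citrulline 24 °C birds. The groups overlapped through the highest bird at 24 °C, and the log2 fold change was 0.12 ± 0.05. Among the next by p were NDUFV3 (0.15 ± 0.08), COX6A1, a subunit whose relative COX6A2 is the muscle form (0.13 ± 0.07), NDUFS3 (0.14 ± 0.08), NDUFB3 (0.13 ± 0.07) and NDUFA1 (0.16 ± 0.09). The 95% intervals of these 5 genes included 0. With the ependyma marker level as a covariate NDUFA13 stood at 0.10 and UQCRC1 at 0.05, and NDUFV3 and COX6A1 were below 0, at -0.01 and -0.04.

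Among heated birds, L-citrulline against the basal diet left the genes near 0. The fold changes of 45 of the 70 genes were above 0, against 51.8% of tested genes, and the median was 0.01, the same to 2 decimals as over all tested genes. That count was 27 without bird 1 of the basal 35 °C group and 24 with the ependyma marker level as a covariate, where the median was -0.02. With the choroid plexus marker level the count was 47 with a median of 0.03. With the oligodendrocyte marker level it was 44 with a median of 0.01. No member passed in edgeR, DESeq2 or limma voom (0% of tested genes in edgeR), and 1 gene (1.43%) was lower at an unadjusted p under 0.05, against 2.68% of tested genes. Medians of the complexes ran from -0.02 for complex II to 0.02 for complexes III and IV.

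The gene lower here was SDHAF4, an assembly factor of succinate dehydrogenase. It had 33.1, 43.3 and 46.8 CPM in L-citrulline 35 °C birds, against 42.1, 46.2 and 57.0 CPM in basal 35 °C birds. The ranges overlapped from 42.1 to 46.8 CPM. Its log2 fold change was -0.19 ± 0.09 (95% interval -0.38 to -0.01; adjusted p = 0.747 in edgeR). NDUFAF8, the least counted member, differed by 0.29 ± 0.14, with a 95% interval of -0.01 to 0.58. Others of the 8 smallest p were UQCRFS1, the Rieske iron-sulfur protein (0.10 ± 0.06), NDUFB9 (0.09 ± 0.06), NDUFAF4 (-0.15 ± 0.10), NDUFS3 (0.12 ± 0.08) and NDUFA8 (0.08 ± 0.06).

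**Figure D4:**
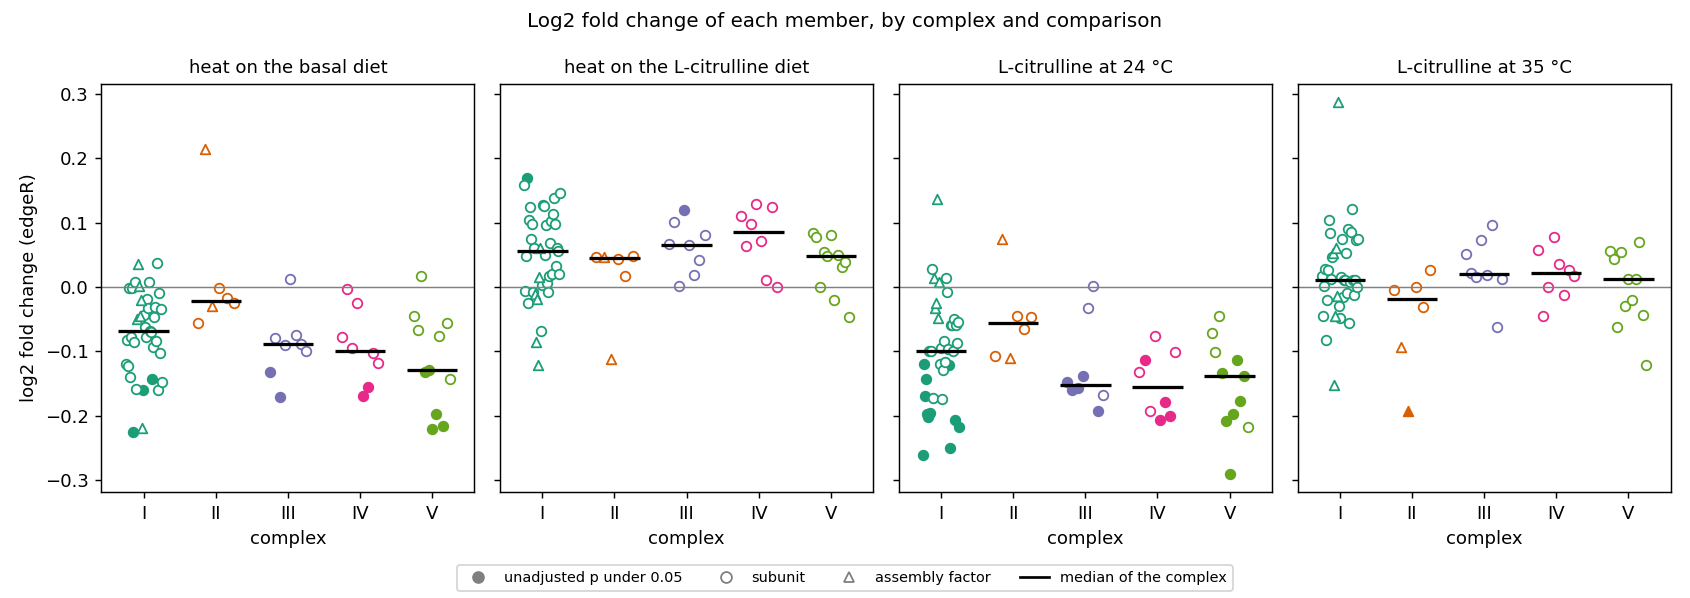
Log2 fold change of each of the 70 genes by complex in the 4 single-factor comparisons, with subunits as circles, assembly factors as triangles, filled where the unadjusted p was under 0.05, and the median of each complex as a bar. Medians ran from -0.13 to -0.02 for heat on the basal diet, 0.04 to 0.08 for heat on the L-citrulline diet, -0.16 to -0.06 for L-citrulline at 24 °C and -0.02 to 0.02 for L-citrulline at 35 °C.

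These comparisons share groups pairwise, so their signs are not independent of each other. The group means give the same picture once for each gene. The mean log2 CPM was highest in the basal 24 °C group for 51 of the 70 genes, against 22.8% of tested genes, and lowest in the L-citrulline 24 °C group for 46, against 25.9%. The L-citrulline 35 °C group was highest for 13 genes and the basal 35 °C group for 3, against 28.1% and 24% of tested genes.

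Heat and L-citrulline together against neither gave 53 of 70 fold changes below 0 (46.8% of tested genes), with a median of -0.05. At an unadjusted p under 0.05, 14 genes were lower (20.0%), against 1.5% of tested genes, and none passed in edgeR (0% of tested genes). With the ependyma marker level as a covariate 52 genes were below 0 with a median of -0.05, and 14 were lower at that p. With the choroid plexus marker level these counts were 53 and 10, and with the oligodendrocyte marker level 55 and 14. ATP5MC3 again did not overlap between the groups, with 101, 116 and 120.1 CPM in L-citrulline 35 °C birds, against 124, 126 and 134 CPM in basal 24 °C birds. The share of tested genes lower without overlap was 0.0873%.

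The interaction asks whether the effect of heat differed between the diets. It was above 0 for 62 of the 70 genes, against 51.5% of tested genes, with a median of 0.13 against 0.01 over all tested genes. At an unadjusted p under 0.05, 14 genes were positive (20.0%) and none negative, against 3.30% of tested genes positive, and none passed the adjusted threshold in edgeR (0% of tested genes), DESeq2 or limma voom. The count of 14 ran from 8 to 23 as single birds were left out, being 8 without bird 4 of the L-citrulline 24 °C group or bird 1 of the basal 35 °C group, 9 without bird 5 of the L-citrulline 24 °C group or bird 2 of the basal 24 °C group, and 23 without bird 2 of the L-citrulline 35 °C group. With the ependyma marker level as a covariate the count was 0, with 36 of 70 genes above 0 and a median of 0.00. With the choroid plexus marker level it was 10, with 61 above 0 and a median of 0.12. With the oligodendrocyte marker level it was 14, with 62 above 0 and a median of 0.12.

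The largest interaction by p was that of ATP5MF, at 0.30 ± 0.10 (95% interval 0.09 to 0.52; adjusted p = 0.568 in edgeR). UQCRC1 had 0.21 ± 0.07 and COX6C 0.24 ± 0.09. All 8 genes of complex III and all 8 of complex IV had an interaction above 0, with medians of 0.18 and 0.18, and complex II had the smallest median at 0.04. That median was 0.01 without bird 4 of the L-citrulline 24 °C group and 0.06 without bird 5 of the basal 24 °C group. With the ependyma marker level as a covariate the medians of complexes I to V were 0.00, -0.05, 0.03, 0.02 and 0.02. With heat averaged over the diets, the median of the 70 genes was -0.01, and with L-citrulline averaged over the temperatures it was -0.05, with 60 genes below 0, against 47.6% of tested genes.

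The 8 assembly factors among the 70 genes, NDUFAF8 and SDHAF4 with them, are set here beside the 62 subunits, and single factors ran from -0.22 for heat on the basal diet to 0.29 for L-citrulline at 35 °C. For L-citrulline at 24 °C, 4 of the 8 were below 0, with a median of -0.01, while 59 of the subunits were below 0, with a median of -0.12. For heat on the basal diet the medians were -0.02 over the assembly factors and -0.08 over the subunits. Heat on the L-citrulline diet gave -0.01 over the assembly factors and 0.06 over the subunits, and L-citrulline at 35 °C gave -0.03 and 0.01. The difference between the kinds of gene was not tested, and the assembly factors were also the lower in level and noisier, with a median SE of 0.10 against 0.07 for the subunits.

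Complex II holds both kinds of gene. SDHAF2 had 8.26, 10.02 and 13.3 CPM in basal-diet birds at 35 °C, against 7.04, 9.80 and 9.98 CPM in basal 24 °C birds, a log2 fold change of 0.21 ± 0.12 with overlapping groups. SDHD, the anchor, differed by -0.02 ± 0.05 in that comparison. SDHA, SDHB and SDHC differed by -0.06 ± 0.07, -0.00 ± 0.05 and -0.02 ± 0.06. For L-citrulline at 24 °C the 4 subunits lay between -0.11 ± 0.07 for SDHA and -0.04 ± 0.05 for SDHB, and none was under an unadjusted p of 0.05.

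Within the groups, pairs of subunits were mostly correlated from bird to bird. With group means removed, the median Pearson r over the 1891 pairs of subunits was 0.45 across the 24 birds, and 98.1% of pairs were positive. Pairs of a member with any other tested gene had a median r of -0.01 and 49.2% positive. Pairs within complex IV had the highest median, 0.63, followed by pairs between complexes III and IV with 0.56. Pairs of an assembly factor with a subunit had a median of 0.07, and pairs of a member with a gene of the mitochondrial genome 0.12. COX6C had the highest median r with the other members, 0.60, and NDUFAF7 the lowest, -0.15. These values describe 24 libraries that each carry their own depth and tissue piece, and birds that stand apart in all genes weigh on every pair.

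**Figure D5:**
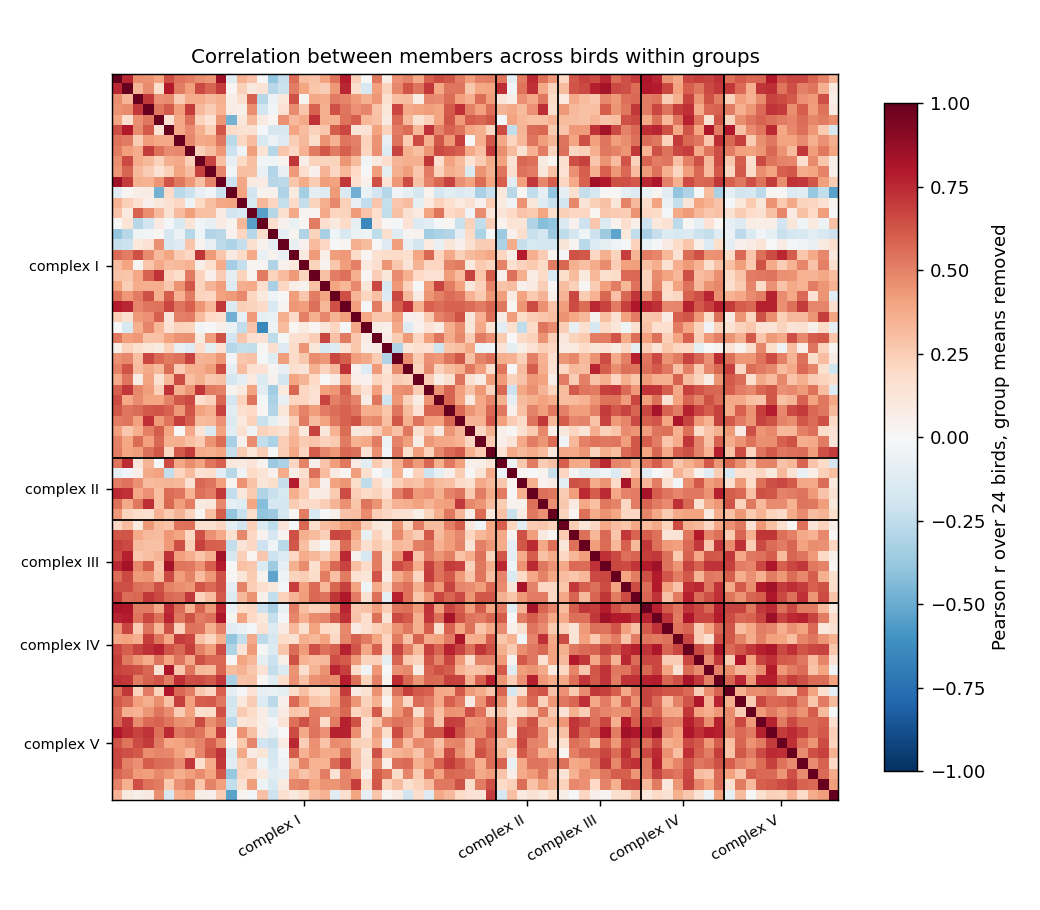
Pearson r between the 70 genes across the 24 birds after removal of the group means, ordered by complex and by name within it. The block of complex IV had a median r of 0.63, and the widest pale band in complex I is that of its 6 assembly factors (median r of all 8 assembly factors with subunits, 0.07).

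Genes that the name rule missed gave similar values. The table holds 8 autosomal genes without a symbol that it describes as NDUFA7, NDUFA11, NDUFAF3, SDHAF3, ATP5MC2 and ATP synthase subunits g, O and epsilon. For L-citrulline at 24 °C, 7 of the 8 were below 0 with a median of -0.14, against 47.6% of tested genes below 0. For heat on the L-citrulline diet all 8 were above 0 with a median of 0.09, against 52.4% above 0. For heat on the basal diet 6 of 8 were below 0 with a median of -0.07, against 49.9%. None passed the adjusted threshold in edgeR, with 3, 0 and 2 at an unadjusted p under 0.05 in these comparisons. Of tested genes, 3.43%, 3.38% and 1.55% were at that p in the same directions. The 5 genes on chromosome Z, whose level follows the number of Z chromosomes, were not read for diet or heat.

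The 13 protein genes of the mitochondrial genome, which encode the partners of these subunits, had small medians. For L-citrulline at 24 °C, 9 of 13 were above 0 with a median of 0.05, against 52.4% of all tested genes. For heat on the basal diet 8 of 13 were above 0 with a median of 0.04, against 50.1%. For heat on the L-citrulline diet 10 of 13 were below 0 with a median of -0.01, against 47.6%. Each median was smaller in size than the SE of any of these genes in that comparison. The 5 genes below 0 for heat on the basal diet included ND3 at -0.19 ± 0.10. ND4L and ND6, like ND3 of complex I, stood at -0.26 ± 0.08 and -0.21 ± 0.08 for heat on the basal diet and -0.19 ± 0.08 and -0.21 ± 0.08 for L-citrulline at 24 °C. None of the 13 passed the adjusted threshold in edgeR, and these 2 were the genes at an unadjusted p under 0.05 in both comparisons. Of all tested genes, 1.55% were lower at that p for heat on the basal diet and 3.43% for L-citrulline at 24 °C.

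The 17 genes of pyruvate dehydrogenase and the citric acid cycle, which deliver the NADH and succinate, had smaller values of the same sign as the subunits. For L-citrulline at 24 °C, 16 of 17 were below 0 with a median of -0.07, led by PDHB at -0.17 ± 0.08 and IDH3B at -0.13 ± 0.07. For heat on the L-citrulline diet 16 of 17 were above 0 with a median of 0.05, led by SUCLG1 at 0.13 ± 0.05. For heat on the basal diet 14 of 17 were below 0 with a median of -0.03, led by PDHX at -0.12 ± 0.05. None passed the adjusted threshold in edgeR, and 1 gene was at an unadjusted p under 0.05 in each of these comparisons. Of all tested genes, 47.6% were below 0, 52.4% above 0 and 49.9% below 0 in these comparisons, in that order. At an unadjusted p under 0.05, 3.43%, 3.38% and 1.55% of tested genes stood in those directions.

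The electron carriers, adenine nucleotide carriers and uncoupling genes gave medians of -0.02 for heat on the basal diet and -0.07 for L-citrulline at 24 °C over 13 tested genes. CYCS, cytochrome c, which carries electrons between complexes III and IV, differed by -0.09 ± 0.06 and -0.12 ± 0.06 in these comparisons. UCP3, an uncoupling protein, had the largest values, 0.55 ± 0.24 for heat on the basal diet and 0.76 ± 0.24 for L-citrulline at 24 °C. Its SE was well above the median of 0.07 for the members. The L-citrulline 24 °C group holds bird 5, which had the high skeletal muscle markers, and UCP3 values without that bird are not given here. CKMT1A, the mitochondrial creatine kinase, differed by -0.21 ± 0.08 for L-citrulline at 24 °C and by 0.24 ± 0.08 for heat on the L-citrulline diet. None of the 13 passed the adjusted threshold in edgeR, with 1 gene at an unadjusted p under 0.05 for heat on either diet and 2 for L-citrulline at 24 °C. Of tested genes, 2.14% were higher at that p for heat on the basal diet and 3.38% for heat on the L-citrulline diet. For L-citrulline at 24 °C, 3.43% were lower and 3.54% higher.

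The 28 assembly factors outside the name rule had medians of 0.00 for heat on the basal diet and -0.04 for L-citrulline at 24 °C, where COX17, the copper chaperone of cytochrome c oxidase, differed by -0.20 ± 0.09. The 14 regulators of mitochondrial biogenesis had medians of 0.00, 0.04, -0.03 and 0.05 for heat on the basal diet, heat on the L-citrulline diet, L-citrulline at 24 °C and L-citrulline at 35 °C. PPARGC1A, the coactivator PGC-1alpha, differed by -0.25 ± 0.12, 0.03 ± 0.12, -0.16 ± 0.12 and 0.12 ± 0.12 in that order. NRF1, a transcription factor with binding sites in many respiratory chain promoters, differed by 0.17 ± 0.14, -0.07 ± 0.14, 0.28 ± 0.14 and 0.04 ± 0.14. TFAM, which packages and transcribes the mitochondrial genome, stayed between -0.05 ± 0.07 and 0.01 ± 0.07. No gene of these lists passed the adjusted threshold in edgeR, and at most 2 of the 28 assembly factors and 1 of the 14 regulators were at an unadjusted p under 0.05 in a single-factor comparison. Over all 13742 tested genes, between 213 and 516 were at that p in 1 direction of such a comparison.

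The birds with and without W transcripts did not differ in 1 direction across the groups. The mean deviation of the 70 genes from their overall mean, in log2 CPM, was -0.02 with and 0.03 without W transcripts in L-citrulline 35 °C birds, 0.05 and -0.04 in basal 35 °C birds, -0.04 and -0.07 in L-citrulline 24 °C birds, and 0.04 and 0.08 in basal 24 °C birds.

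By gene length, the median for L-citrulline at 24 °C was -0.13 over the 35 shorter and -0.10 over the 35 longer genes, against -0.02 over all tested genes as short as the shorter ones. Heat on the basal diet gave medians of -0.09 over the shorter and -0.06 over the longer genes, heat on the L-citrulline diet 0.06 and 0.05, and the interaction 0.17 and 0.10. By level, heat and L-citrulline against neither had a median of -0.04 over the 35 genes of higher and -0.07 over the 35 of lower level. These differences between the parts of the list were not tested. In the authors' deposited tables of the same comparisons, 63 of the 70 genes had a log2 fold change below 0 for L-citrulline at 24 °C and 63 for heat on the basal diet, with 8 and 5 of them at a p under 0.05. Their tables had 0 of the 70 genes at a p under 0.05 for heat and L-citrulline against neither, where edgeR gave 14 lower. They also had 0 for heat on the L-citrulline diet and for L-citrulline at 35 °C. The share of all genes at that p in these tables is not given here. In the authors' deposited table the smallest p of a member was that of ATP5MF for L-citrulline at 24 °C, 0.00553.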

How the data were processed

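Hypothalamus RNA of 24 chickens was measured as RNA-seq. Per the file headers, the deposited table holds raw counts per gene and FPKM for each library, and the authors' comparison tables hold log2 fold changes and p-values; these are the authors' values and were only quoted. Per the submitters' processing notes the tools were HISAT2, TopHat, HTSeq and DESeq with build GRCg6a; the sources used here give no versions, strand setting or filters. The FPKM equalled count over gene length and library total within 5.2e-15. If reads of near-identical gene copies were split or dropped, small subunit genes with copies, such as UQCRH, are the most uncertain.

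Counts were fitted over all genes with edgeR 4.0.16 (R 4.3.3, limma 3.58.1), with the quasi-likelihood test, TMM scaling, 1 coefficient for each of the 4 groups and all 24 libraries in the fit. The default filter kept 13742 genes, all 70 members among them, and p-values were adjusted by Benjamini-Hochberg over these. The biological coefficient of variation was 0.186. A fold change is on the log2 scale, treated or heated group over its control, ± SE. CPM values use TMM scaling, and log2 CPM a prior count of 2. The procedure was tested on simulated data with fold changes larger than those of the members here. That test does not show how well changes of the members' size are found. DESeq2 1.42.0, limma voom and the other alternatives are in the closing section.

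The members and gene lists were chosen with earlier results of these data known. The text names the 8 members with the smallest p in each single-factor comparison, the highest and lowest gene of each complex by FPKM, tissue isoforms, and in other lists the 2 smallest p together with PPARGC1A, NRF1, TFAM and CYCS; other genes are named as examples of a role, chosen after their values were seen. A result that this rule would name is not reported here. By NCBI gene number 69 of the 70 members matched the RefSeq table, 57 under the same symbol. No pair of libraries of a group agreed within sampling noise (chi-square over its degrees of freedom 7.24 to 90.0), and 0 value columns lacked a sample. Promoter and protein sequences were not used here.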

Additional observations from a re-analysis of the deposited data

Results flagged for a closer look

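In 120 sets of 6 birds (the summed level of the 70 genes and of each complex, and the genes named for a small p), 10 had a bird whose gap to the nearest other bird was too large a share of the group's range by Dixon's 95% critical value. Chance alone flags about 1 in 20 sets, and the sets share birds and genes.

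Bird 2 of the L-citrulline 35 °C group stood below the others in 5 sets. Its summed level of all 70 genes was 6513 FPKM against 6974 to 7207 FPKM in the other 5 birds, and its complex I sum was 2517 FPKM against 2676 to 2764 FPKM. It also had the lowest NDUFS3 (48.1 CPM against 60.2 to 64.6), ATP5MC3 (101 CPM against 115 to 120.1) and UQCRH (132 CPM against 154 to 165). Without this bird, 63 of the 70 genes were above 0 for heat on the L-citrulline diet, where 57 were with it.

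Bird 1 of the basal 35 °C group stood below its group in complex IV, with 1603 FPKM against 1830 to 1959 FPKM, and in COX6C, with 149 CPM against 184 to 194 CPM. Bird 2 of that group was high for NDUFAF4, at 52.6 CPM against 44.2 to 47.0 CPM. Bird 6 of the basal 24 °C group was low for UQCR10, at 52.8 CPM against 59.6 to 62.1 CPM, and bird 2 of the L-citrulline 24 °C group was high for UQCRC1, at 263 CPM against 213 to 232 CPM.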

How the results depend on the processing

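No alternative gave a member an adjusted p under 0.05. Those tried were DESeq2's size factors in edgeR, the DESeq2 Wald test, limma voom, no filter on low counts, the presence of W transcripts or the level of the oligodendrocyte, ependyma or choroid plexus markers as a covariate (the ependyma and choroid plexus fits were added after seeing the data), removal of a gene length trend, a replicate block, and each of the 24 birds left out. The count of called members was 0 in all 8 comparisons under all of them, and the smallest adjusted p of a named member was 0.124 (ATP5MF for L-citrulline at 24 °C, DESeq2). Over all genes, DESeq2 called 8 for L-citrulline at 24 °C, 6 for heat on the L-citrulline diet, 2 for the interaction and 1 for L-citrulline at 35 °C, none of them a member. With the ependyma marker level as a covariate, 2 of the 32 named fold changes changed sign, NDUFV3 to -0.0062 and COX6A1 to -0.039 for heat on the L-citrulline diet, and under the other alternatives none did. With that covariate 14 of the 40 complex medians changed sign and the largest shift was 0.161 (log2). The medians that moved by more than the spread between birds were then -0.042 (complex V) for heat on the basal diet, -0.020, -0.041, -0.029, -0.026 and -0.038 (complexes I to V) for heat on the L-citrulline diet, -0.018, -0.058, -0.045 and -0.056 (complexes I, III, IV and V) for L-citrulline at 24 °C, and 0.00013, -0.052, 0.033, 0.017 and 0.021 (complexes I to V) for the interaction. The cause was not tested. Under the alternatives other than the ependyma and choroid plexus covariates, the medians moved by at most 0.06. That was less than the spread between birds, an SD of 0.07 to 0.09 (log2) for the level of a complex within groups. This SD is that of single birds and is wider than the uncertainty of a difference between means of 6 birds. It is also as large as many of the medians, so a smaller shift can still be a large share of a median. Leaving out single birds moved some medians by over 1.5 times. Medians close to 0, for L-citrulline at 35 °C and for heat averaged over the diets, changed sign in 27 cases (a median under 1 alternative each). The ratio of highest to lowest bird of complex II was 1.24 in CPM against 1.18 in FPKM.

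Leaving out each bird in turn, an alternative that for the next counts was added after seeing the data, the genes below 0 ran from 52 to 67 for heat on the basal diet and from 62 to 66 for L-citrulline at 24 °C. The genes above 0 ran from 50 to 63 for heat on the L-citrulline diet and from 27 to 53 for L-citrulline at 35 °C. The genes lower at an unadjusted p under 0.05 ran from 8 to 15 for heat on the basal diet and from 15 to 31 for L-citrulline at 24 °C.

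Replicate numbers are shared by the groups, and libraries of the same number did not deviate together: their correlations ran from -0.40 to 0.40, with medians from -0.19 to 0.06. With the replicate number as a block, the count of called members was 0 in every comparison, and 0 of all tested genes passed. The median SE of a member was 0.07 (log2) in each single-factor comparison, which limits what 6 birds against 6 can show for 1 gene.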
